A study of Homo sapiens with 16 samples.

Results

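Semaphorins, plexins and neuropilins are the ligands, receptors and co-receptors of one of the large families of guidance cues. The members were chosen by gene symbol: every row of the deposited gene tables for a semaphorin of class 3 to 7, a plexin or a neuropilin. This gave 31 genes of 20314 in the tables of U251 cells and of 20626 in those of U343 cells: 20 semaphorins (7 of class 3, 6 of class 4, 2 of class 5, 4 of class 6 and 1 of class 7), 9 plexins and 2 neuropilins. The members held between 0.175% and 0.301% of all reads of a library.

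Semaphorins bind plexins, whose cytoplasmic part acts on small GTPases and so changes adhesion and the actin cytoskeleton. Class 3 semaphorins are secreted, and most of them reach A-type plexins through a neuropilin co-receptor, whereas the other vertebrate classes are membrane bound and mostly bind plexins directly. The family was first known from repulsion of growing axons, and in gliomas its members are studied for their effects on migration, invasion and blood vessel growth.

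The established glioblastoma lines U251 and U343 had been transfected with a miR-137 mimic or with a negative control mimic at 25 nM and harvested after 48 hours. From each transfection, total RNA was sequenced (RNASeq), and so was RNA pulled down with antibodies to the poly(A)-binding protein PABP (RIPSeq). This made 8 groups (line, assay and mimic) of 2 libraries each, 16 in all. Both mimics were delivered with the same lipid reagent, so every library comes from transfected cells, and each line is 1 culture source with no untransfected group among the samples used here. Nothing in the labels says that the 2 libraries of a group came from separate cultures, so the p-values below measure the spread between these libraries, which may be technical. cDNA was primed with random hexamers in U251 and made with another kit in U343; cell line and library kit cannot be told apart in any comparison between the lines.

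miR-137 is a brain-enriched microRNA that lowers its targets by pairing of its seed, bases 2 to 8, with their transcripts. The mature miR-137-3p, the arm usually meant by the name, is encoded on the minus strand of chromosome 1 (GRCh38.p14, chr1:98046091-98046113) and is shown because the mimic is the only agent that differs between the groups. The seed is in capitals in the RefSeq sequence, 5′ to 3′.
hsa-miR-137-3p: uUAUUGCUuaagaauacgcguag

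Library totals were 10156675 to 18224061 reads in U251 RNASeq and 22359794 to 30731476 in U251 RIPSeq. They were 37952273 to 45134766 in U343 RNASeq and 37736206 to 45055184 in U343 RIPSeq. In U251 RNASeq the controls held 16886287 and 18224061 reads and the miR-137 libraries 10260834 and 10156675. Depth and mimic therefore went together in that experiment, and the part of depth in its calls was not tested. Levels are given as counts per 1e6 reads of the TMM-scaled library total (CPM), one library after the other. They are not divided by transcript length, so they are compared between libraries and never between genes. TMM factors were computed within each experiment, so levels of different lines or assays are not on 1 exact scale. Fold changes between lines or assays come from fits with their own scaling and can differ from the ratio of the levels. A member is called higher or lower where edgeR's quasi-likelihood test gave a Benjamini-Hochberg adjusted p under 0.05 over all genes tested, and a fold change is given on the log2 scale with its standard error (SE). Where groups are said not to overlap, this describes the 2 libraries on each side and is not a test. How often it held over all genes was not counted. The 8 markers of glioma and astroglial cells (VIM, NES, CD44, EGFR, GFAP, S100B, SOX2 and OLIG2) summed to 6049 to 16596 CPM. A sum does not show that each was present, and 1 of the 8 had 0 reads in U251 RNASeq control replicate 1, for example. The 6 markers of blood, endothelial and epithelial cells summed to 0.550 to 3.08 CPM in U251. In U343 they summed to 9.09 to 31.8 CPM, and the endothelial cadherin CDH5 held most of them there. In U343 these other markers summed lower with miR-137, at 16.0 and 28.2 CPM in RNASeq controls against 9.57 and 14.3 CPM and at 31.8 and 21.4 CPM in RIPSeq controls against 11.2 and 9.09 CPM. Of the 2 tested in each, none was called in RNASeq and 1 was called lower in RIPSeq; their part in the members' changes was not tested. In U251 RNASeq 5 of 7 glioma markers tested were lower with miR-137, and their sum was 12386 and 12766 CPM in controls against 6049 and 6258 CPM; the part of this in the members' changes was not tested.

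In 2 of the 8 groups the libraries stood far apart. The control libraries of U251 RIPSeq were 216 apart in mean chi-square over genes, and 18 of the 23 members with at least 50 reads differed more than 1.5-fold between them. Their median absolute log2 ratio was 0.93 for such members and 0.66 for all genes with at least 50 reads. The miR-137 libraries of U343 RNASeq differed by 174.6 per gene, with 7 of 26 such members more than 1.5-fold apart. There the medians were 0.35 for members and 0.23 for all genes. The share of all genes more than 1.5-fold apart was not counted. The other 6 pairs lay between 2.457 and 21.92 per gene. In the second of these pairs the interferon genes differed. The 7 listed genes of that response (IFIT1, IFIT2, IFIT3, ISG15, MX1, OAS1 and RSAD2) summed to 83.3 CPM in miR-137 replicate 1 and to 9581 CPM in replicate 2, against 91.8 and 98.2 CPM in the controls. In the other miR-137 libraries the same sum was 7009.9 to 9141 CPM, against 40.4 to 85.0 CPM in their controls. The interferon list therefore moved with miR-137 in 7 of the 8 miR-137 libraries, and its part in the members' changes was not tested. The members' values in the odd library are given below.

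In total RNA of U251 cells the family moved mainly upwards with miR-137. Of the 28 members that passed the filter on low counts, 18 were higher and 3 lower, where 28.7% of all genes tested were called higher and 29% lower. The median log2 fold change of the members was 0.82, against 0.02 for all genes. All 9 plexins were higher, as were 8 of the semaphorins and NRP1, while SEMA3C, SEMA3E and SEMA6B were lower. Because bulk RNA was measured, fewer cells of a kind and less RNA per cell cannot be told apart. Upper-quartile scaling moved the median of all genes from 0.02 to 0.16 and their split from 3780 lower and 3749 higher to 3001 and 4588, with 3 members lower and 21 higher. Under a joint fit of the 8 U251 libraries, which takes in the spread of the RIPSeq controls, 8 members were higher and 2 lower, beside 1615 and 1336 of all 14210 genes.

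In total RNA of U343 cells 8 of 30 members tested were higher and 1 lower, where 8.31% of all genes were higher and 11.7% lower, and the members' median log2 fold change was 0.25. Without control replicate 1 or without control replicate 2 of that experiment 0 genes were called in all, at an adjusted p under 0.05, members included. In U343 RIPSeq 12 of 29 were higher and 5 lower, beside 28.5% and 27.8% of all genes, with a median of 0.23. In U251 RIPSeq, where the controls differed from each other, 1 of 31 members was lower and none was higher by edgeR, beside 0.263% and 0.944% of all genes. In that comparison 7 members had an unadjusted p under 0.05, as did 20.1% of all genes, and the members' median was -0.34. DESeq2 called 2 members lower and 2 higher, beside 534 and 589 of 14087 genes. Without control replicate 1 there were 9 lower and 11 higher members, beside 5052 and 4689 of all 14309 genes tested. Without control replicate 2 there were 17 and 10, beside 5366 and 6304 of 15682. The lower call by edgeR was lost without either miR-137 library, and whether the member counts moved with those of all genes was not tested. Over the 4 comparisons 26 of the 31 members were called at least once, 14 at least in 2, and SEMA4F and NRP1 in both directions. The share of all genes called that often was not counted. In U251 RNASeq alone 28.7% of all genes were higher and 29% lower, so these counts are not read as a trait of the members. SEMA3A, SEMA3G, SEMA4G, SEMA5A and SEMA6C were called in none.

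**Figure D1:**
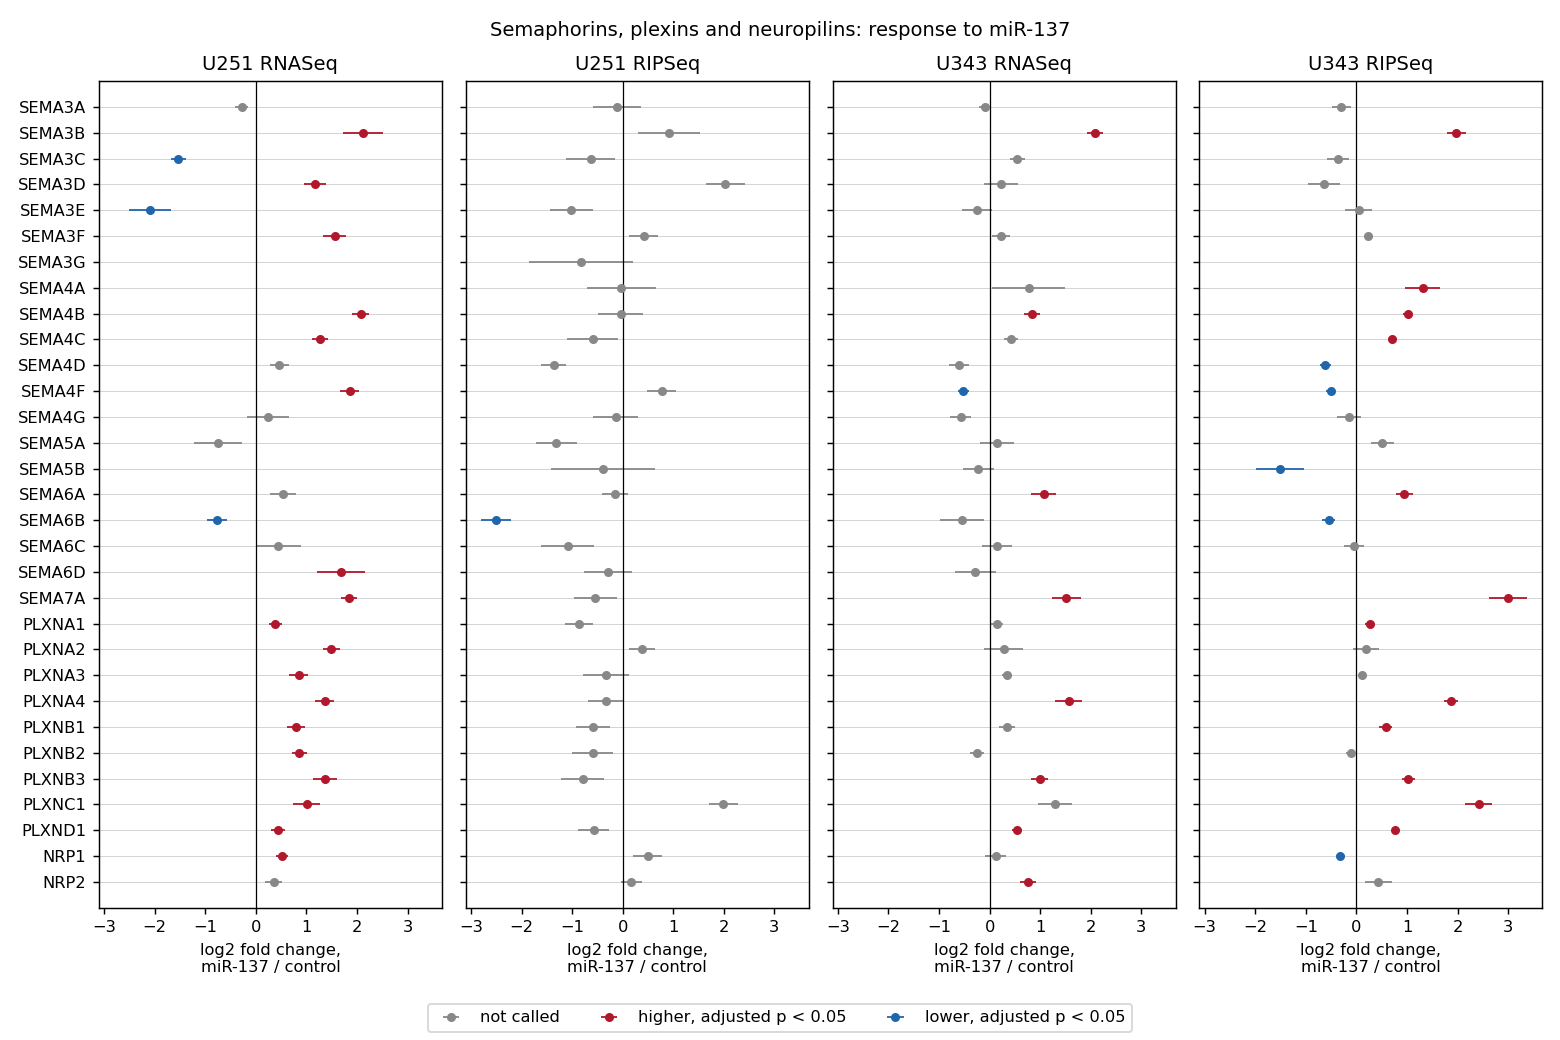
Log2 fold change of each member with miR-137 against the control mimic (x axis; points, edgeR estimates; bars, standard error) in the 4 experiments, with genes on the y axis and colour for the call. In U251 RNASeq 18 members lie to the right in the colour for higher and 3 to the left, whereas in U251 RIPSeq 1 member is called.

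Of the class 3 semaphorins, the secreted ligands, SEMA3B was the one called in both lines. SEMA3B and SEMA3F are neighbouring genes on chromosome 3 (hg18, chr3:50280044-50289576 and chr3:50167852-50201512, both on the plus strand) that are known as candidate tumour suppressors. In U251 RNASeq SEMA3B stood at 1.66 and 0.428 CPM in the control libraries and at 4.15 and 4.88 CPM with miR-137, on 26 and 7 reads against 46 and 55 reads. In U343 RNASeq it stood at 21.0 and 16.0 CPM and at 82.1 and 75.3 CPM. Both miR-137 libraries were above both controls in each line, by 4.34-fold in U251 (log2 fold change 2.12 ± 0.40 (SE), adjusted p = 0.000537) and by 4.25-fold in U343 (log2 fold change 2.09 ± 0.16 (SE), adjusted p = 0.00724). The difference between the 2 fold changes was -0.04 ± 0.47 (SE) on the log2 scale, with an adjusted p of 0.967. The U343 library with interferon genes at the control level, replicate 1, held 82.1 CPM of SEMA3B and the other 75.3 CPM. In PABP-bound RNA SEMA3B read 17.9 and 28.4 CPM and then 87.0 and 94.8 CPM in U343, a 3.93-fold rise (log2 fold change 1.98 ± 0.19 (SE), adjusted p = 0.000106). In U251 RIPSeq its controls lay far apart, at 9.76 and 2.86 CPM, below 12.4 and 11.4 CPM with miR-137 (log2 fold change 0.92 ± 0.61 (SE), adjusted p = 0.471).

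SEMA3C and SEMA3E fell in U251 RNASeq, and the difference between the lines was itself past the threshold. SEMA3C, a secreted semaphorin studied in glioma stem cells, went from 487 and 507 CPM to 194 and 149 CPM in U251 RNASeq, 2.89-fold lower (log2 fold change -1.53 ± 0.15 (SE), adjusted p = 2.24e-06). In U343 RNASeq it stood at 238 and 308 CPM in controls and 402 and 398 CPM with miR-137 (log2 fold change 0.55 ± 0.15 (SE), adjusted p = 0.0722). The groups did not overlap in either line and lay in opposite order, and the difference of the fold changes was 2.07 ± 0.24 (SE; adjusted p = 0.00157). SEMA3E, the ligand of PLXND1 that needs no neuropilin, was a low-count gene: 31 and 37 reads in U251 controls and 7 and 4 reads with miR-137, 4.25-fold lower (log2 fold change -2.09 ± 0.42 (SE), adjusted p = 0.000784). Its U343 values overlapped, and the lines differed by 1.84 ± 0.53 (SE; adjusted p = 0.0363). SEMA3D and SEMA3F rose in U251 RNASeq. SEMA3F, the ligand of NRP2, went from 2.63 ± 0.52 CPM (SD, n = 2) to 7.73 ± 0.026 CPM, 2.94-fold (log2 fold change 1.56 ± 0.23 (SE), adjusted p = 7.18e-05), but in U343 it was at 162 and 169 CPM and 224 and 163 CPM, and the response differed between the lines by -1.34 ± 0.27 (SE; adjusted p = 0.00985). SEMA3D went from 4.77 ± 0.87 CPM (SD, n = 2) to 10.8 ± 2.3 CPM in U251 RNASeq (log2 fold change 1.18 ± 0.22 (SE), adjusted p = 0.000475), and its U343 values overlapped. SEMA3A, the prototype of the class, was between 428 and 541 CPM in U251 RNASeq (log2 fold change -0.28 ± 0.13 (SE), adjusted p = 0.0858), and SEMA3G had at most 27 reads in any library.

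Class 4 semaphorins, which span the membrane, gave 2 opposite patterns. SEMA4B and SEMA4C were called higher in both lines, SEMA4D was called lower in U343, and SEMA4F rose in U251 and fell in U343. For SEMA4B, U251 RNASeq read 28.1 and 19.4 CPM in controls and 100.3 and 98.9 CPM with miR-137, 4.20-fold higher (log2 fold change 2.07 ± 0.17 (SE), adjusted p = 3.10e-07). U343 RNASeq read 23.8 and 24.3 CPM and 37.2 and 48.7 CPM, 1.79-fold higher (log2 fold change 0.84 ± 0.16 (SE), adjusted p = 0.0325), and U343 RIPSeq 22.3 and 21.1 CPM and 41.3 and 47.0 CPM (log2 fold change 1.02 ± 0.10 (SE), adjusted p = 9.87e-05). The rise was larger in U251 by -1.24 ± 0.26 (SE; adjusted p = 0.0115), counted as U343 minus U251. In U251 RIPSeq the 2 controls, 121 and 53.6 CPM, lay on either side of both miR-137 libraries, 85.0 and 85.7 CPM.

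SEMA4C, a ligand of PLXNB2, stood at 18.2 and 13.7 CPM in U251 RNASeq controls and at 41.2 and 35.6 CPM with miR-137, a 2.41-fold rise (log2 fold change 1.27 ± 0.17 (SE), adjusted p = 2.44e-05). In U343 the PABP-bound RNA rose from 30.8 and 34.8 CPM to 52.6 and 54.6 CPM (log2 fold change 0.71 ± 0.09 (SE), adjusted p = 0.000450), while total RNA, at 42.0 and 40.1 CPM and 61.6 and 49.0 CPM, missed the threshold (log2 fold change 0.43 ± 0.14 (SE), adjusted p = 0.104). No value overlapped between the groups in these 3 experiments. Its U251 RIPSeq libraries held 71.9 and 27.8 CPM in controls and 32.5 and 33.6 CPM with miR-137, with both miR-137 values between the controls.

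SEMA4F changed in opposite directions in the lines. Its U251 RNASeq values were 4.02 and 4.40 CPM in controls and 15.1 and 15.3 CPM with miR-137, 3.61-fold higher (log2 fold change 1.85 ± 0.18 (SE), adjusted p = 2.23e-06). Its U343 RNASeq values were 46.4 and 45.7 CPM and 30.1 and 34.0 CPM, 1.43-fold lower (log2 fold change -0.52 ± 0.11 (SE), adjusted p = 0.0369), and U343 RIPSeq gave 48.0 and 45.4 CPM and 32.5 and 33.1 CPM (log2 fold change -0.51 ± 0.08 (SE), adjusted p = 0.00132). The 2 libraries of each of these groups lay close together, and the lines' fold changes differed by -2.38 ± 0.18 (SE; adjusted p = 0.000330), the largest difference in size between the lines among the members called in that test. The U343 library with control-level interferon genes gave the lower SEMA4F value of its pair. In U251 RIPSeq SEMA4F was at 10.7 and 7.55 CPM in controls and 15.7 and 15.3 CPM with miR-137, with no overlap and no call (log2 fold change 0.77 ± 0.28 (SE), adjusted p = 0.239).

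SEMA4D, the ligand of PLXNB1 and in lymphocytes of CD72, was lower with miR-137 in 3 of the 4 experiments and called in 1. PABP-bound SEMA4D went from 39.3 and 35.2 CPM to 14.6 and 14.3 CPM in U251, 2.58-fold lower with an adjusted p of 0.0883. In U343 the PABP-bound RNA went from 15.9 and 15.0 CPM to 9.65 and 10.5 CPM, 1.53-fold lower (log2 fold change -0.61 ± 0.11 (SE), adjusted p = 0.00202). Total RNA of U343 showed 10.1 and 11.1 CPM and 6.01 and 7.97 CPM (log2 fold change -0.60 ± 0.19 (SE), adjusted p = 0.100). The groups did not overlap in these 3 experiments. Total RNA of U251 had the opposite order, 8.30 and 6.91 CPM in controls and 11.5 and 9.40 CPM with miR-137 (log2 fold change 0.46 ± 0.19 (SE), adjusted p = 0.0535). The fold changes of the 2 lines differed in RNASeq by -1.07 ± 0.30 (SE; adjusted p = 0.0325), and those of the 2 assays differed in U251 by -1.88 ± 0.30 (SE), with an adjusted p of 0.0607. SEMA4A, a low-count gene, was called in U343 RIPSeq only, with 14 and 8 reads in controls and 28 and 22 reads with miR-137, and its group levels there were 0.254 ± 0.080 CPM (SD, n = 2) and 0.639 ± 0.11 CPM (log2 fold change 1.31 ± 0.35 (SE), adjusted p = 0.0145). SEMA4G, the one member that overlaps other genes (MIR608 on the same strand and MRPL43 on the other), stayed at 10 to 97 reads, which cannot be assigned to it alone.

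Among class 6 semaphorins, which signal through A-type plexins, SEMA6B is the one member called lower in 3 comparisons. Its strongest fall was in PABP-bound RNA of U251, from 50.7 and 37.7 CPM to 7.42 and 8.16 CPM, 5.67-fold (log2 fold change -2.50 ± 0.29 (SE), adjusted p = 0.0464). SEMA6B was the single member called there, and the call was lost under upper-quartile scaling, under either other count filter and without either miR-137 library. Total RNA of U251 held 10.1 and 13.0 CPM in controls and 6.13 and 7.45 CPM with miR-137 (log2 fold change -0.76 ± 0.20 (SE), adjusted p = 0.00524). PABP-bound RNA of U343 held 7.96 and 7.23 CPM and 5.25 and 5.16 CPM (log2 fold change -0.55 ± 0.13 (SE), adjusted p = 0.00893). The groups were apart in all 3, and the RIPSeq fall was larger in U251 than in U343 by 2.02 ± 0.31 (SE; adjusted p = 0.0248; U343 minus U251). In total RNA of U343 the 2 miR-137 libraries disagreed. Replicate 1, the library without the interferon rise, held 8.43 CPM, close to the controls at 8.70 and 8.74 CPM, and replicate 2 held 3.54 CPM (log2 fold change -0.54 ± 0.43 (SE), adjusted p = 0.419).

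SEMA6A rose in both U343 experiments. Its U343 RNASeq levels were 1.99 and 1.77 CPM in controls and 4.60 and 3.30 CPM with miR-137 (log2 fold change 1.07 ± 0.24 (SE), adjusted p = 0.0467), and its U343 RIPSeq levels 2.66 and 3.12 CPM and 5.17 and 5.97 CPM (log2 fold change 0.95 ± 0.16 (SE), adjusted p = 0.00189). In U251 RNASeq it was at 2.23 and 2.87 CPM and 3.97 and 3.46 CPM, also with no overlap (log2 fold change 0.54 ± 0.26 (SE), adjusted p = 0.0967), and the fold changes of the 2 lines did not differ past the threshold (adjusted p = 0.345). In U251 RIPSeq the levels were 3.08 and 2.97 CPM and 2.64 and 2.83 CPM. SEMA6D was called in U251 RNASeq only, on 5 and 9 reads in controls and 20 and 12 reads with miR-137, group levels 0.435 ± 0.16 CPM (SD, n = 2) and 1.43 ± 0.52 CPM (log2 fold change 1.69 ± 0.47 (SE), adjusted p = 0.00781). SEMA5B, of class 5, was called in U343 RIPSeq only, from 6.34 ± 4.0 CPM (SD, n = 2) to 2.20 ± 1.0 CPM (log2 fold change -1.52 ± 0.47 (SE), adjusted p = 0.0270).

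SEMA7A, the one member of class 7, is held at the membrane by a lipid anchor and binds PLXNC1 and integrins. Its levels set the lines apart more than those of any other member tested, and it rose in both. U251 RNASeq had 49.8 and 37.1 CPM in controls and 168 and 145 CPM with miR-137, a 3.60-fold rise (log2 fold change 1.85 ± 0.16 (SE), adjusted p = 5.14e-07). U343 RNASeq had 0.346 and 0.290 CPM and 1.02 and 0.825 CPM, on 16 and 11 reads against 43 and 35 reads (log2 fold change 1.52 ± 0.29 (SE), adjusted p = 0.0338). In U343 RIPSeq the step was from 4 and 7 reads to 37 and 45 reads, or 0.0886 and 0.172 CPM to 0.948 and 1.15 CPM (log2 fold change 3.00 ± 0.37 (SE), adjusted p = 0.000360). The groups did not overlap in these 3 experiments, although the U343 values rest on few reads. In U251 RIPSeq the controls were at 308 and 141 CPM and the miR-137 libraries, at 152 and 157 CPM, lay between them (log2 fold change -0.54 ± 0.42 (SE), adjusted p = 0.540). The RIPSeq responses of the lines differed by 3.59 ± 0.69 (SE; adjusted p = 0.0400); this call held without either U251 control library and was lost without any 1 of the other 6 libraries, with the direction kept.

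**Figure D2:**
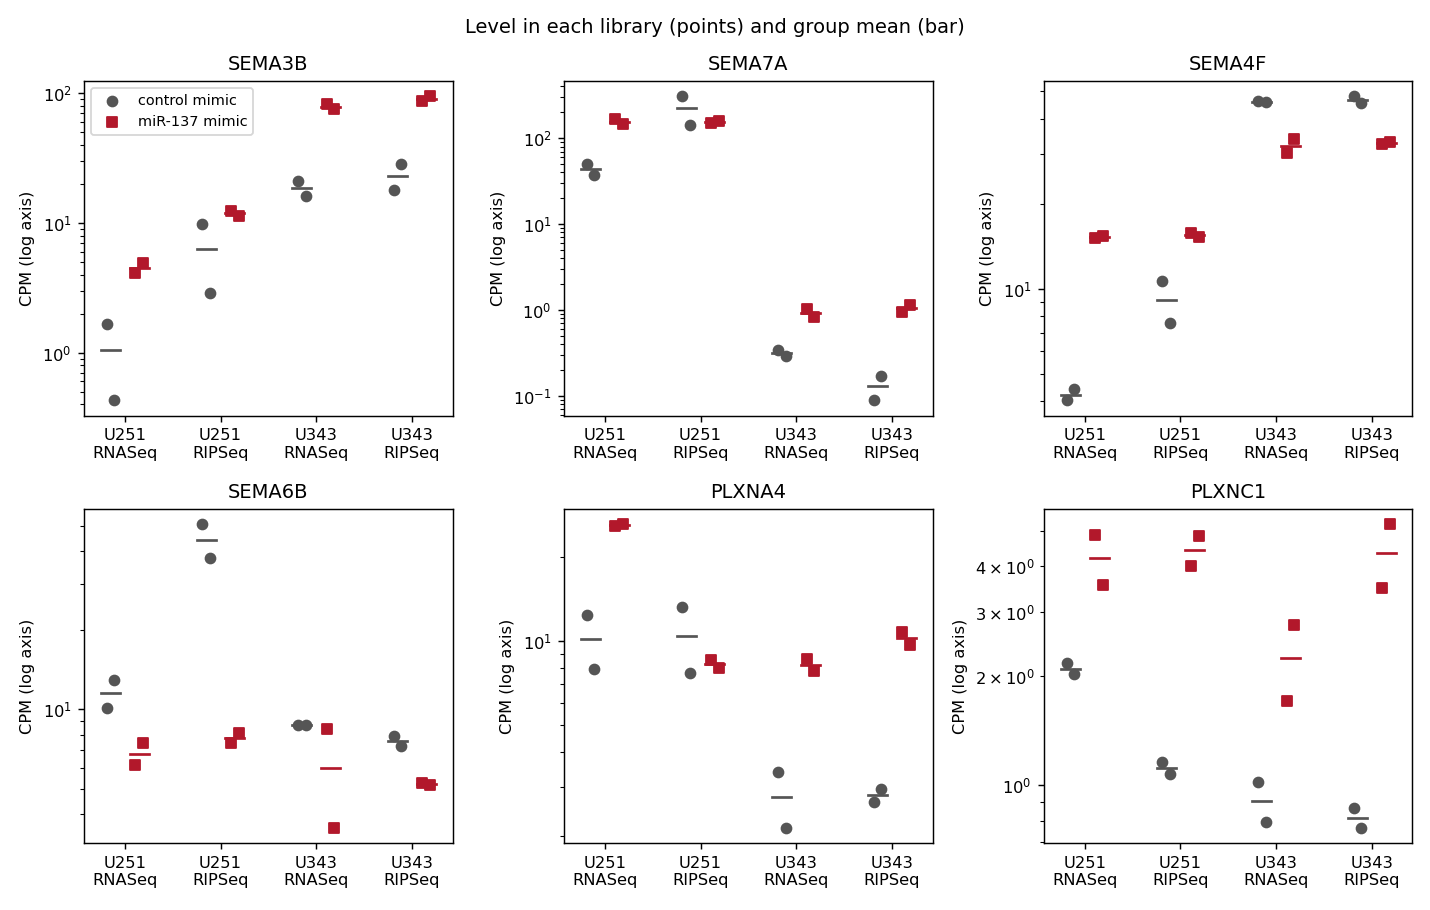
Level of 6 members in every library, in CPM on a log axis, by experiment (x axis); points are single libraries and bars the mean of the 2 libraries of a group. SEMA3B is higher with miR-137 in all 4 experiments without overlap, SEMA4F is higher in U251 and lower in U343, and SEMA7A sits at 37.1 CPM or more in U251 RNASeq and at 1.15 CPM or less in U343.

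The plexins, the receptors, were all called higher in U251 RNASeq, 9 of 9 (log2 fold changes 0.39 to 1.49). They also moved together between replicates: every plexin was higher in control replicate 1 than in replicate 2, for example PLXNA3 at 20.0 and 12.6 CPM. The U251 RIPSeq controls had the same order. Between the U251 RNASeq controls the median absolute log2 ratio was 0.34 for members and 0.13 for all genes, each with at least 50 reads. In U343 RNASeq 3 of 9 and in U343 RIPSeq 6 of 9 were higher, none was lower in either, and in U251 RIPSeq none was called. Of the A-type plexins, which carry class 3 and class 6 signals, PLXNA4 rose in 3 experiments. It had 12.4 and 7.95 CPM in U251 RNASeq controls and 25.9 and 26.2 CPM with miR-137, 2.57-fold higher (log2 fold change 1.36 ± 0.19 (SE), adjusted p = 4.77e-05). It had 3.40 and 2.14 CPM and 8.59 and 7.83 CPM in U343 RNASeq, 2.95-fold higher (log2 fold change 1.56 ± 0.27 (SE), adjusted p = 0.0269), and 2.66 and 2.95 CPM and 10.7 and 9.70 CPM in U343 RIPSeq (log2 fold change 1.87 ± 0.14 (SE), adjusted p = 3.40e-05). The miR-137 libraries were above the controls in each of these, with the 2 U343 RNASeq libraries close to each other. U251 RIPSeq gave 13.2 and 7.69 CPM in controls and 8.53 and 8.01 CPM with miR-137, and the RIPSeq responses of the lines differed by 2.26 ± 0.41 (SE; adjusted p = 0.0342).

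PLXNA1 rose by a smaller factor. U251 RNASeq read 74.2 and 65.6 CPM in controls and 97.0 and 85.8 CPM with miR-137 (log2 fold change 0.39 ± 0.13 (SE), adjusted p = 0.0222), and U343 RIPSeq 325 and 345 CPM and 389 and 418 CPM (log2 fold change 0.27 ± 0.10 (SE), adjusted p = 0.0481). U343 RNASeq read 456 and 447 CPM and 541 and 456 CPM, without a call (log2 fold change 0.14 ± 0.12 (SE), adjusted p = 0.428). In U251 RIPSeq the order was opposite, 173 and 122 CPM in controls and 83.1 and 79.8 CPM with miR-137 (log2 fold change -0.86 ± 0.28 (SE), adjusted p = 0.201). PLXNA2 and PLXNA3 were called in U251 RNASeq only: PLXNA2 went from 8.76 ± 1.2 CPM (SD, n = 2) to 24.6 ± 1.6 CPM (log2 fold change 1.49 ± 0.17 (SE), adjusted p = 6.11e-06). PLXNA3 went from 16.3 ± 5.2 CPM (SD, n = 2) to 29.3 ± 2.1 CPM (log2 fold change 0.85 ± 0.19 (SE), adjusted p = 0.00198).

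The B-type plexins bind class 4 semaphorins and recruit guanine nucleotide exchange factors. PLXNB3 was called higher in 3 experiments. Its U251 RNASeq values were 6.83 and 3.79 CPM in controls and 13.1 and 14.2 CPM with miR-137 (log2 fold change 1.36 ± 0.24 (SE), adjusted p = 0.000261). Its U343 RNASeq values were 6.80 and 5.91 CPM and 13.8 and 11.5 CPM, 1.99-fold higher (log2 fold change 0.99 ± 0.17 (SE), adjusted p = 0.0266), and its U343 RIPSeq values 10.9 and 14.3 CPM and 25.5 and 25.8 CPM (log2 fold change 1.03 ± 0.13 (SE), adjusted p = 0.000470). Neither line's groups overlapped in these experiments. U251 RIPSeq read 35.2 and 16.8 CPM and 15.9 and 14.2 CPM, with both miR-137 libraries below both controls and no call (log2 fold change -0.79 ± 0.42 (SE), adjusted p = 0.385).

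PLXNB1, the receptor of SEMA4D, rose in U251 RNASeq from 12.9 and 8.93 CPM to 18.5 and 19.3 CPM (log2 fold change 0.80 ± 0.18 (SE), adjusted p = 0.00235) and in U343 RIPSeq from 48.4 and 59.6 CPM to 73.1 and 88.1 CPM (log2 fold change 0.58 ± 0.13 (SE), adjusted p = 0.00644). In U343 RNASeq it stood at 69.0 and 57.2 CPM and 88.3 and 72.6 CPM (log2 fold change 0.35 ± 0.15 (SE), adjusted p = 0.180), and in U251 RIPSeq at 48.4 and 29.1 CPM in controls and 25.3 and 26.0 CPM with miR-137 (log2 fold change -0.60 ± 0.34 (SE), adjusted p = 0.402). In U343 RIPSeq, then, the receptor PLXNB1 was called higher and its ligand SEMA4D lower. PLXNB2 was called in U251 RNASeq only, from 35.7 ± 6.9 CPM (SD, n = 2) to 64.6 ± 2.3 CPM (log2 fold change 0.86 ± 0.15 (SE), adjusted p = 0.000277). U343 RNASeq held 349 and 305 CPM of it in controls and 303 and 247 CPM with miR-137, and the difference between the lines was past the threshold (-1.11 ± 0.24, SE; adjusted p = 0.0118).

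PLXNC1, the plexin receptor of SEMA7A, was higher with miR-137 in every experiment without overlap and called in 2. U251 RNASeq had 2.17 and 2.02 CPM in controls and 4.87 and 3.55 CPM with miR-137 (log2 fold change 1.00 ± 0.27 (SE), adjusted p = 0.00619). U343 RIPSeq had 0.864 and 0.762 CPM and 3.48 and 5.23 CPM, a 5.33-fold rise on 39 and 31 reads against 136 and 205 reads (log2 fold change 2.41 ± 0.26 (SE), adjusted p = 0.000173). The 2 others missed the threshold, U251 RIPSeq at 1.16 and 1.07 CPM and 4.02 and 4.85 CPM (log2 fold change 1.99 ± 0.29 (SE), adjusted p = 0.0644) and U343 RNASeq at 1.02 and 0.792 CPM and 1.71 and 2.76 CPM (log2 fold change 1.30 ± 0.33 (SE), adjusted p = 0.0620). In the latter pair the library without the interferon rise, at 1.71 CPM, was the nearer to the controls. Ligand and receptor were thus called higher together in U251 RNASeq and U343 RIPSeq.

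PLXND1, which binds SEMA3E and is best known from blood vessels, rose in 3 experiments. U251 RNASeq gave 63.2 and 48.3 CPM in controls and 75.0 and 76.1 CPM with miR-137 (log2 fold change 0.44 ± 0.15 (SE), adjusted p = 0.0190). U343 RNASeq gave 46.0 and 45.9 CPM and 63.7 and 69.9 CPM (log2 fold change 0.54 ± 0.09 (SE), adjusted p = 0.0271), and U343 RIPSeq 49.1 and 48.9 CPM and 82.8 and 84.2 CPM (log2 fold change 0.77 ± 0.08 (SE), adjusted p = 0.000116). Replicates of this gene were close in both U343 experiments, whereas its U251 RNASeq controls, 63.2 and 48.3 CPM, stood apart beside a log2 fold change of 0.44. In U251 RIPSeq the controls, 231 and 149 CPM, were both above the miR-137 libraries, 129 and 126 CPM (log2 fold change -0.58 ± 0.30 (SE), adjusted p = 0.367).

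The neuropilins, co-receptors for class 3 semaphorins and for VEGF, were called in 3 comparisons between them. NRP1 rose in U251 RNASeq from 125 and 129 CPM to 192 and 173 CPM (log2 fold change 0.52 ± 0.13 (SE), adjusted p = 0.00325) and fell in U343 RIPSeq from 43.0 and 46.6 CPM to 37.7 and 34.3 CPM (log2 fold change -0.32 ± 0.09 (SE), adjusted p = 0.0203). In U251 RIPSeq it read 58.6 and 85.9 CPM and 101 and 103 CPM (log2 fold change 0.49 ± 0.29 (SE), adjusted p = 0.419). In U343 RNASeq, with controls at 50.4 and 51.6 CPM, miR-137 replicate 1 was below them at 45.0 CPM and replicate 2, with high interferon genes, above them at 65.7 CPM. The difference between the lines was not past the threshold in RNASeq (adjusted p = 0.256) or in RIPSeq (adjusted p = 0.191). NRP2 rose in U343 RNASeq from 289.9 and 357 CPM to 492 and 597 CPM, 1.68-fold (log2 fold change 0.75 ± 0.16 (SE), adjusted p = 0.0412). In U343 RIPSeq its groups overlapped, 308 and 189 CPM against 408 and 264 CPM. In U251 NRP2 stood at 529 and 493 CPM and 755 and 548 CPM in RNASeq (log2 fold change 0.35 ± 0.16 (SE), adjusted p = 0.0786) and at 420.1 and 504 CPM and 525 and 517 CPM in RIPSeq (log2 fold change 0.17 ± 0.20 (SE), adjusted p = 0.686).

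The odd U343 RNASeq pair allows a look at the members with and without the interferon rise. With replicate 1 left out, so that the remaining miR-137 library had high interferon genes, 12 members were higher and 3 lower, beside 2994 and 3152 of all 15509 genes. With replicate 2 left out, so that it had interferon genes at the control level, 12 were higher and 2 lower, beside 2811 and 2951 of 15281; with both libraries in, 1254 genes were higher and 1764 lower. In both fits the lone library was assumed to vary like the controls, and the fits share their 2 control libraries. As log2 ratios to the control mean, SEMA3B was at 2.15 in replicate 1 and 2.02 in replicate 2, PLXNA4 at 1.63 and 1.5, SEMA7A at 1.68 and 1.37, SEMA6B at -0.05 and -1.30, and NRP1 at -0.18 and 0.37. These 5 were chosen after their values were seen, and the part of the interferon response in the members' changes was not tested.

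**Figure D3:**
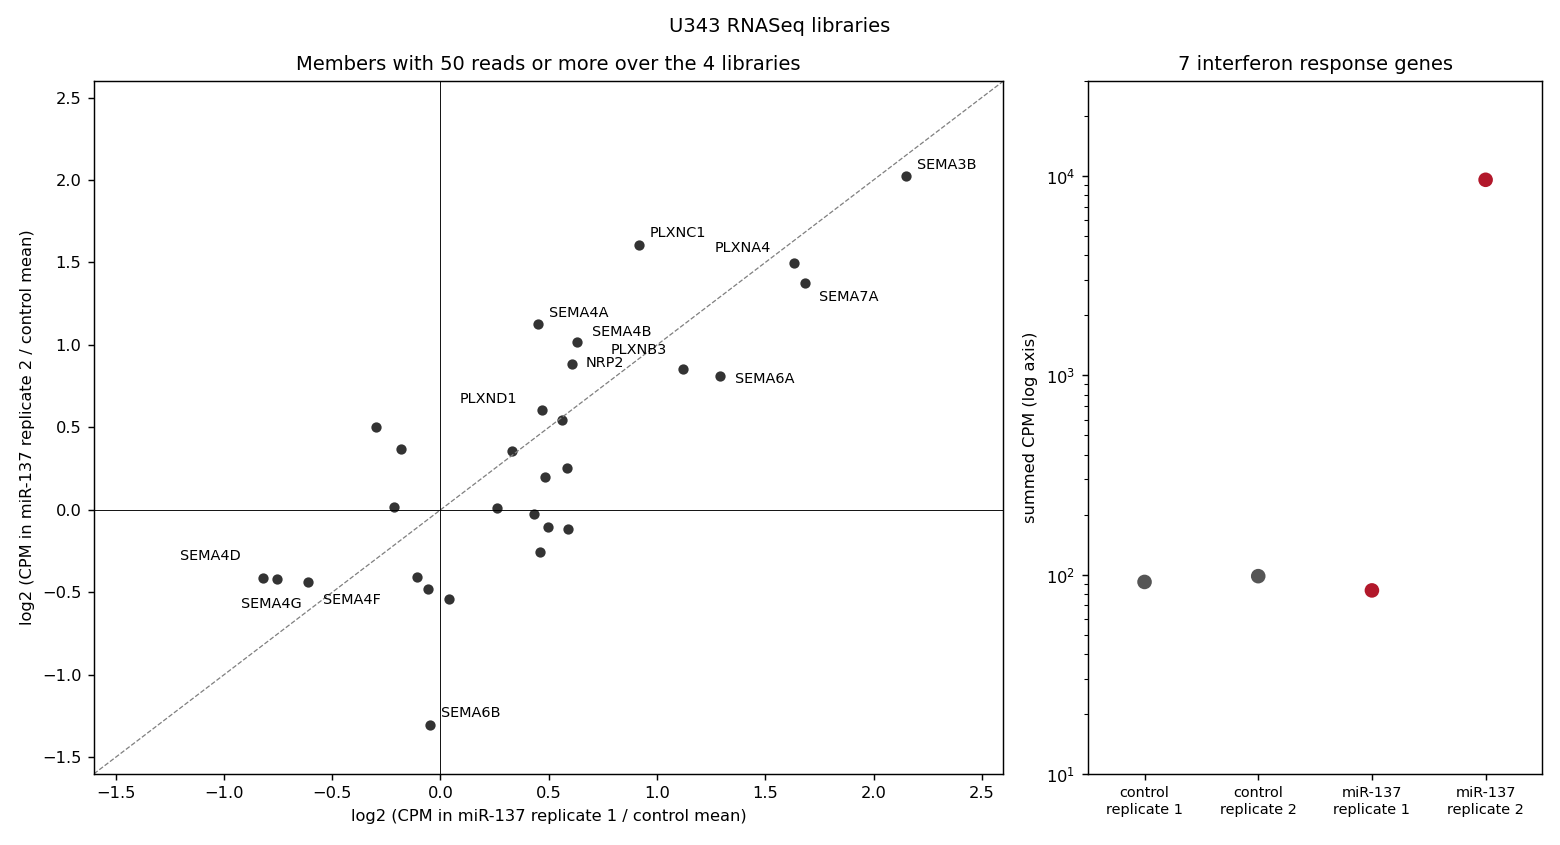
Left, log2 ratio of each U343 RNASeq miR-137 library to the control mean, replicate 1 on the x axis and replicate 2 on the y axis, for the 29 members with 50 reads or more over the 4 libraries (dashed line, equality). Right, summed CPM of 7 interferon response genes on a log axis in each library; replicate 1 of miR-137 sits with the controls and replicate 2 is at 9581 CPM, while SEMA3B, PLXNA4 and SEMA7A are raised in both and SEMA6B is lower in replicate 2.

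The lines differed in most of these genes, as in most genes tested, before any comparison of mimics. In total RNA of control transfections 21 of 28 members tested differed between U343 and U251, 14 higher and 7 lower in U343, beside 44.9% and 39.9% of all genes; kit and line cannot be told apart here. SEMA7A was 129-fold lower in U343 (log2 fold change -7.01 ± 0.24 (SE), adjusted p = 2.14e-08), at 0.346 and 0.290 CPM against 49.8 and 37.1 CPM. SEMA3F was 65.5-fold higher in U343 (log2 fold change 6.03 ± 0.14 (SE), adjusted p = 4.35e-09), at 162 and 169 CPM against 3.00 and 2.26 CPM. SEMA5B (27.0-fold), SEMA3B (18.5-fold), SEMA4F (11.3-fold) and PLXNB2 (9.50-fold) followed on the higher side, all with adjusted p no larger than 2.25e-05, and PLXNA1, PLXNA2, PLXNA3 and PLXNB1 were higher too. PLXNA4 (3.50-fold), NRP1 (2.41-fold), PLXNC1 (2.21-fold), SEMA3C, SEMA3E and NRP2 were lower in U343. SEMA7A and its receptor PLXNC1 were thus both lower in U343, and SEMA3A, SEMA4B, SEMA5A, SEMA6A, SEMA6B, PLXNB3 and PLXND1 were not called.

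**Figure D4:**
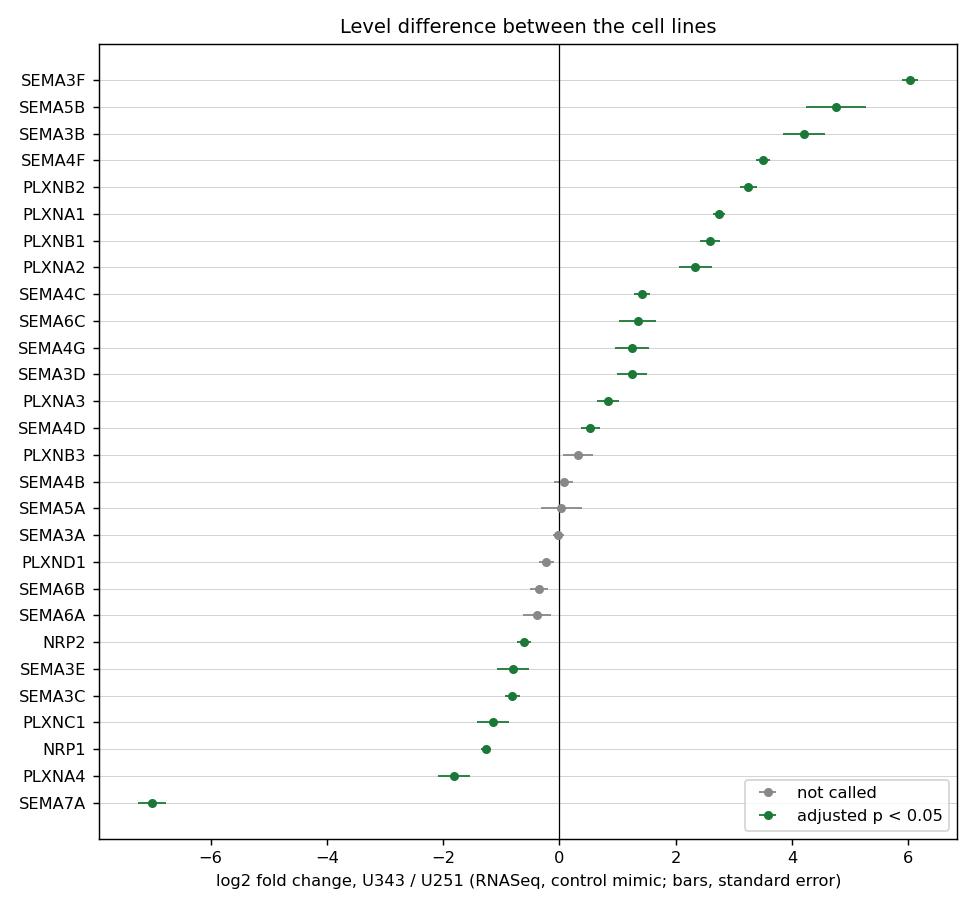
Log2 fold change of U343 against U251 in total RNA of control transfections (x axis; bars, standard error) for the 28 members tested, in order of size on the y axis. SEMA7A lies at -7.01 and SEMA3F at 6.03.

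Whether the mimic acted alike in the lines was tested as an interaction. In RNASeq 8 of 30 members were past the threshold, beside 25.2% of all genes: SEMA3C and SEMA3E were relatively higher in U343, and SEMA3F, SEMA4B, SEMA4C, SEMA4D, SEMA4F and PLXNB2 relatively lower. In RIPSeq 3 of 31 were (SEMA6B, SEMA7A and PLXNA4), beside 3.28% of all genes. The members' shares were 26.7% and 9.68%. In RNASeq the count fell to 2 without U251 miR-137 replicate 2 (1041 lower and 1557 higher of 16270 genes) and to 3 without U251 control replicate 2 (942 and 1086 of 16358). It fell to 4 without U251 miR-137 replicate 1 (1074 and 1462 of 16178) or U343 control replicate 1 (821 and 1203 of 15436). In RIPSeq it was 15 without U251 control replicate 1, beside 2436 lower and 3068 higher of all 16323 genes, and 22 without control replicate 2, beside 4634 and 4479 of 17249. Without any 1 of the other 6 libraries no member was called, and of all genes 1 was lower and 1 or 2 were higher.

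PABP coats the poly(A) tail, and RIPSeq gives the level of an RNA among all RNA pulled down with it. A difference from RNASeq is relative to other genes and does not give the share of an RNA that is bound. In control transfections of U251, 10 of 28 members tested were higher in RIPSeq than in RNASeq and none was lower, beside 7.87% and 6.14% of all genes, with a median log2 difference of 1.51. The 10 were SEMA3F, SEMA4B, SEMA4D, SEMA6B, SEMA7A, PLXNA2, PLXNB1, PLXNB2, PLXNB3 and PLXND1, between 2.79-fold (PLXNA2) and 5.78-fold (SEMA7A). SEMA4D, for example, was at 39.3 and 35.2 CPM in RIPSeq and 8.30 and 6.91 CPM in RNASeq (log2 fold change 2.44 ± 0.33 (SE), adjusted p = 0.0183). The count depends on single libraries: 1 member was higher without RNASeq control replicate 1 and none without RNASeq control replicate 2, beside 87 of 15224 and 41 of 15273 genes. Without RIPSeq control replicate 1 there were 15 and without RIPSeq control replicate 2 there were 21, beside 3695 of 13220 and 5709 of 14711 genes. In U343 5 of 30 members were higher (SEMA4D, SEMA5B, SEMA6A, PLXNA3 and PLXNB3) and 2 lower (SEMA3E and PLXNA1), beside 24.4% and 24.2% of all genes. SEMA4D and PLXNB3 were the members higher in RIPSeq in both lines, and in U343 SEMA4D was 1.57-fold higher (log2 fold change 0.65 ± 0.10 (SE), adjusted p = 0.00183).

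The change with miR-137 was also compared between the assays. In U251 none of 29 members passed by edgeR, beside 0.134% of all genes, although 16 had an unadjusted p under 0.05, as did 18.9% of all genes, and DESeq2 called 8, beside 403 lower and 314 higher of 14210 genes. The members' median difference, RIPSeq minus RNASeq, was -1.24. Without RIPSeq control replicate 1 there were 14 calls, beside 1224 lower and 1664 higher of 14355 genes, and without replicate 2 there were 23, beside 3922 and 4947 of 15287, with the lone control's spread assumed. In U343 none of 30 passed, beside 0.00649% of all genes; 3 had an unadjusted p under 0.05, as did 17.6% of all genes, DESeq2 called none, beside 272 lower and 127 higher of 15413 genes, and the median difference was 0.01.

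The rule of the study, Fisher's exact test between single libraries, was applied in both directions. In U251 RNASeq it kept 1 member as lower (SEMA3C) and 10 as higher (PLXNA2, PLXNA4, PLXNB3, SEMA3B, SEMA3D, SEMA3F, SEMA4B, SEMA4C, SEMA4F and SEMA7A), beside 2.21% and 6.14% of all genes. With totals scaled by TMM the higher members were 7, and the split of all genes went from 448 lower and 1248 higher to 796 and 789. In U251 RIPSeq it kept SEMA4D and SEMA6B as lower and SEMA3D and PLXNC1 as higher, beside 1.49% and 3.47%. In U343 RNASeq it kept PLXNA4 and SEMA3B as higher and no member as lower, beside 1.51% and 2.88%. In U343 RIPSeq it kept PLXNA4, PLXNC1, SEMA3B and SEMA7A as higher and none as lower, beside 4.83% and 3.4%. A member was kept when all 4 pairings of control with miR-137 libraries passed, each with odds changed more than 2-fold and an adjusted p below 0.001. The rule takes reads as independent and so counts only sampling error within a pair.

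Partners outside the family moved in both directions, and no list was uniform in every comparison. Among 15 co-receptors and alternative receptors, 2 of 10 tested were lower and 3 higher in U251 RNASeq, 1 and 1 of 14 in U343 RNASeq, 3 and 7 of 14 in U343 RIPSeq, and none of 11 in U251 RIPSeq; the medians were 0.10, 0.36, 0.55 and -0.20. L1CAM, an adhesion molecule that joins NRP1 in a SEMA3A receptor, had the largest rise in U343, from 1.24 to 13.3 CPM in RNASeq (log2 fold change 3.42 ± 0.22 (SE), adjusted p = 0.00647) and from 1.25 to 17.3 CPM in RIPSeq (log2 fold change 3.78 ± 0.16 (SE), adjusted p = 2.45e-06). MET, a receptor tyrosine kinase that associates with B-type plexins, had the largest fall there, from 424 to 188 CPM in RNASeq (log2 fold change -1.17 ± 0.22 (SE), adjusted p = 0.0306) and from 302 to 111 CPM in RIPSeq (log2 fold change -1.44 ± 0.16 (SE), adjusted p = 0.000241). In U251 RNASeq the largest changes of this list were the fall of CNTN1 (log2 fold change -1.18 ± 0.13 (SE), adjusted p = 6.72e-06) and the rise of FLT1, a VEGF receptor (log2 fold change 1.44 ± 0.32 (SE), adjusted p = 0.00169).

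Of the 5 VEGF family ligands that neuropilins can bind, 4 of 5 rose in U251 RNASeq, led by VEGFC, a growth factor of lymphatic vessels, from 15.3 to 100.04 CPM (log2 fold change 2.71 ± 0.15 (SE), adjusted p = 6.94e-09). In U343 RIPSeq 2 of 4 tested rose and 2 fell, with VEGFB the larger fall (log2 fold change -0.49 ± 0.11 (SE), adjusted p = 0.00655); none was called in the other 2 comparisons. Of 32 plexin effectors, 12 of 28 tested fell and 6 rose in U251 RNASeq (median -0.03), 4 of 29 fell and 8 rose in U343 RNASeq (median 0.17), 9 of 29 fell and 13 rose in U343 RIPSeq (median 0.13), and 1 of 30 fell in U251 RIPSeq (median -0.09). FARP1, an exchange factor bound by plexins, had the largest fall in U251 RNASeq (log2 fold change -1.50 ± 0.16 (SE), adjusted p = 5.24e-06), in U343 RIPSeq (log2 fold change -1.83 ± 0.08 (SE), adjusted p = 3.51e-06) and in U251 RIPSeq, where it went from 76.1 to 15.4 CPM (log2 fold change -2.31 ± 0.26 (SE), adjusted p = 0.0430). GIPC1, an adaptor that binds the tail of NRP1, had the largest fall in U343 RNASeq, from 156 to 43.2 CPM (log2 fold change -1.85 ± 0.11 (SE), adjusted p = 0.00647). RND3, a small GTPase, had the largest rise in U343, from 25.1 to 127 CPM in RIPSeq (log2 fold change 2.34 ± 0.09 (SE), adjusted p = 2.22e-06).

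Collapsin response mediators, which carry class 3 signals to microtubules, were called in both directions in U251 RNASeq (1 of 3 lower, 1 higher) and U343 RIPSeq (1 of 5 lower, 2 higher), with 1 of 5 higher in U343 RNASeq and none of 3 in U251 RIPSeq. CRMP1 had the largest rise in each of those 3, for example from 114 to 277 CPM in U343 RNASeq (log2 fold change 1.28 ± 0.17 (SE), adjusted p = 0.0165). In the actin arm of 11 genes, 5 fell and 2 rose in U251 RNASeq, 3 fell and 2 rose in U343 RNASeq, 5 fell and 3 rose in U343 RIPSeq and none was called in U251 RIPSeq, with medians of -0.34, -0.19, -0.22 and -0.12. PAK2, a kinase downstream of Rac and Cdc42, had the largest fall in all 3, from 171 to 57.1 CPM in U251 RNASeq (log2 fold change -1.58 ± 0.14 (SE), adjusted p = 6.12e-07). Other guidance families (slits, netrins, ephrins and their receptors) gave 9 lower and 10 higher of 27 in U251 RNASeq with a median of 0.27, against 3 and 18 of 28 for the semaphorin family with a median of 0.82. In U343 they gave 1 and 4 of 31 in RNASeq and 9 and 7 of 31 in RIPSeq, and none of 32 in U251 RIPSeq. SLIT1, a low-count ligand of ROBO receptors, had the largest rise in U251 RNASeq and both U343 experiments, for example from 0.105 to 1.09 CPM in U343 RIPSeq (log2 fold change 3.34 ± 0.49 (SE), adjusted p = 0.000831). Each of these lists stands beside the shares of all genes given above for the same comparison.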

How the data were processed

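RNASeq measured rRNA-depleted total RNA and RIPSeq measured RNA immunoprecipitated with PABP antibodies, sequenced for 36 cycles. The authors used RMAP for alignment to hg18 and assigned reads to RefSeq genes collapsed to 1 super-transcript each; the deposited values are raw counts of reads per gene, 1 table a library. No strand setting of the counting is given in the sources used here, so SEMA4G cannot be separated from MRPL43. A symbol listed on 2 lines in the U251 tables (SLC35E2) was used once.

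Groups were taken from the titles. Counts were scaled by TMM, filtered with filterByExpr and tested with edgeR 4.0.16 (R 4.3.3; quasi-likelihood F test, Benjamini-Hochberg adjusted p under 0.05) on all genes tested, with interaction terms for the differences between lines and assays. Alternatives were DESeq2 1.42.0, upper-quartile scaling, leaving out each library, a joint fit per line, a replicate block, and filters at 1 read in any library or a mean of 50. The study's Fisher rule used SciPy 1.17.1. The edgeR and Fisher code was tested on simulated data. Totals of 10156675 to 45134766 reads set the precision of the counts.

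The members, the partner lists and the tests were chosen with earlier results of these data known. Values in every library are given for members called in at least 2 of the 4 miR-137 comparisons and for SEMA4D, NRP1 and NRP2; members called in 1 get group levels there, the others counts and ranges, and each partner list its called gene with the largest fall and rise.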

Additional observations from a re-analysis of the deposited data

Results flagged for a closer look

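Results are listed here where the response to miR-137 differed between the lines by the interaction test over all genes (edgeR's quasi-likelihood test, adjusted p under 0.05), given as the log2 fold change in U343 minus that in U251. In RNASeq SEMA4F differed by -2.38, with values higher in U251 and lower in U343 in both libraries of each line. SEMA3C differed by 2.07 and SEMA3E, on 4 to 52 reads a library, by 1.84; both fell in U251 and neither was called in U343. SEMA4B differed by -1.24 and was called higher in both lines. SEMA3F (-1.34), PLXNB2 (-1.11) and SEMA4C (-0.85) were called higher in U251 and not called in U343, and SEMA4D (-1.07) was called in neither line. In RIPSeq SEMA7A differed by 3.59, PLXNA4 by 2.26 and SEMA6B by 2.02, and each of these 3 kept its call without either U251 control library, while without any 1 of the other 6 libraries it lost the call with the direction kept, in fits that called 2 or 3 genes in all. The 2 lines were also prepared with different library kits, which cannot be told apart from the lines.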

How the results depend on the processing

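Depth limits SEMA3G, SEMA4A, SEMA6D and SEMA3E, which had at most 52 reads in any library, and SEMA7A in U343, with 4 to 45 reads. Levels per transcript length, planned as the main scale, were not run because no transcript lengths were at hand, so CPM was used. A planned check for shared batches found correlations of same-numbered libraries' deviations between -0.027 and 0.367 in the 4 miR-137 comparisons (0.189 and -0.234 between assays); the labels give no meaning to the numbers. With the replicate number as a block, U251 RNASeq had 3 lower and 19 higher members with miR-137, beside 3929 and 3766 of 13052 genes. U251 RIPSeq had 1 and 2, beside 273 and 529 of 14087 genes. U343 RNASeq had 0 and 8, beside 1456 and 1076 of 15088, and U343 RIPSeq 8 and 15, beside 4787 and 4858 of 14866. RIPSeq against RNASeq in U251 controls had 2 and 17, beside 2101 and 1935 of 13242. The RIPSeq difference between lines had 0, beside 54 and 86 of 15959. The joint fit of a line's libraries gave 8 higher in U251 RNASeq, beside 1615 of 14210 genes. It gave 3 lower and 2 higher in U251 RIPSeq, beside 1213 and 1142 of 14210. In U343 it gave 2 lower in RNASeq, beside 2768 of 15413 genes, and 3 lower in RIPSeq, beside 3681 of 15413. DESeq2 gave 2 lower and 2 higher in U251 RIPSeq, beside 534 and 589 of 14087 genes. It gave 17 higher for RIPSeq against RNASeq in U251, beside 1945 of 13242. For the difference between assays in U251 it gave 8, beside 403 lower and 314 higher of 14210. For that between lines in RIPSeq it gave 12, beside 665 and 1195 of 15959. The lower call in U251 RIPSeq became 0 with upper-quartile scaling (41 of 14087 genes lower) and with no filter beyond 1 read (5 of 19820). It also became 0 with 50 reads on average (50 of 11467). RIPSeq against RNASeq became 0 higher in U251 without the filter, beside 16 of 19768 genes. In U343 it became 4 lower without the filter, beside 3838 of 19890, or with upper-quartile scaling, beside 3883 of 14878.

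Leaving out each library in turn gave 0 to 17 lower and 0 to 11 higher in U251 RIPSeq, 0 to 3 lower and 0 to 12 higher in U343 RNASeq, 0 to 5 lower and 0 to 21 higher for RIPSeq against RNASeq in U251, and 3 to 6 higher for it in U343. The differences between assays ranged from 0 to 23 (U251) and 0 to 1 (U343), and those between lines from 2 to 9 (RNASeq) and 0 to 22 (RIPSeq). Where 1 library was left in a group, it was assumed to vary like the others. The counts of all genes moved too in each of these comparisons, and whether the members shifted more or less than all genes was not tested. By the study's rule, an adjusted p under 0.05 gave 2 lower in U251 RNASeq, beside 487 of 20314 genes. Asking for 3 of 4 pairs gave 1 lower in U343 RIPSeq, beside 880 of 20626. An odds ratio over 1.5 gave 8 higher in U343 RIPSeq, beside 1760 of 20626, and 4 in U343 RNASeq, beside 732. Leaving out a library under that rule gave 2 to 9 lower and 2 to 4 higher in U251 RIPSeq, 0 to 1 lower in U343 RIPSeq, and 0 to 1 lower and 2 to 5 higher in U343 RNASeq. The all-gene counts of the rule moved with the library left out as well. The cause of these shifts was not tested.

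Of 1033 alternative values for 105 single-gene results, 848 kept their direction and side of the threshold, 165 lost the call in the same direction, 19 gained it and 1 reversed: NRP1 in U343 RNASeq, with no call in the full data, was -0.18 without miR-137 replicate 2 and 0.36 without replicate 1.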
